A study of Mus musculus with 9 samples.

Results

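The BTG and TOB genes, the Polo-like stress kinase genes Plk2 and Plk3, the cell cycle inhibitor gene Cdkn1a and the stress gene Gadd45a were followed across 9 expression arrays of NIH-CAR cells. The set was a list of 9 gene symbols, and every probe set that the platform annotation gives to a listed symbol alone was used. Of the 9 genes 8 had such a probe set, with 18 probe sets in all, out of 18193 genes with 34945 probe sets. The ninth, Btg3, shared its only probe set with another gene, Gm7334, and is given no value. The genes were chosen by family and function around Btg2, whose higher level under the full-length receptor than with empty vector was already known, so values of full-length receptor against empty vector are given as a description, with no p-value, for all 8 genes. The same holds for Btg2 under the deleted receptor.

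NIH-CAR cells are mouse fibroblasts, cloned from NIH-3T3, with a stable copy of CARΔ1, the coxsackie-adenovirus receptor, and every group comes from this 1 clonal line at passage 12. In the first group, AdEmpty, the adenovirus carried no insert and the cells then received DMSO. In the second, AdHA-PPARg2, it encoded HA-tagged full-length PPARγ2, and in the third, AdHA-PPARgCDE, HA-tagged PPARγ lacking the A/B-domain, and both were followed by rosiglitazone at 1 µM. Every group met adenovirus for 2 h, each had 3 arrays, numbered 1 to 3, and receptor and agonist always came together against empty vector. No group received rosiglitazone without a receptor virus or a receptor virus with vehicle. The title of the study asks at which genes the A/B-domain, the N-terminal part of the receptor, matters for activation.

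BTG and TOB proteins form a family of antiproliferative factors that share a BTG domain at the N-terminus. That domain binds the deadenylases of the CCR4-NOT complex, which shorten poly(A) tails of messenger RNA. Btg2 and Cdkn1a are classical p53 target genes, and Btg2, Plk2 and Plk3 are also known as immediate-early genes that serum or stress induces within a short time. Plk2 and Plk3 differ from Plk1, the mitotic Polo kinase, in acting mainly in G1, in stress responses and in neurons. Cdkn1a encodes p21, an inhibitor of cyclin-dependent kinases, and Gadd45a encodes a small protein that binds p21 and stress kinases after DNA damage.

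All levels below are log2 values as the authors deposited them, given as mean ± SD over 3 arrays, and differences are log2 differences with a standard error (SE) from limma. A gene is called when its limma p, adjusted by Benjamini-Hochberg over the 18193 genes, is under 0.05. The p-values rest on the spread between arrays, all of 1 line. In RNA from a whole culture, more cells with a transcript and more transcript per cell cannot be told apart. Array medians ran from 6.68 to 6.90. Pparg, the transgene's own gene, was at 7.06 ± 0.10 with empty vector, 11.25 ± 0.84 with the full-length and 11.34 ± 0.63 under the deleted receptor. All 10 fibroblast markers lay above the median gene, among them Col1a1 at 13.49 ± 0.13 with empty vector, while 0 of 5 leukocyte and 0 of 4 endothelial markers did. Of 5 epithelial markers 2 did, and of 4 muscle markers 1. Of 4 adipocyte markers 1 did, and the list's mean level per array ran from 5.14 to 5.55 with empty vector, from 7.70 to 8.10 under the full-length and from 6.81 to 7.40 under the deleted receptor. That marker was Fabp4, a fatty acid binding protein gene and a classical PPARγ target, at 5.82 ± 0.36 with empty vector, 13.42 ± 0.26 under the full-length and 12.36 ± 1.15 under the deleted receptor. Cidec, a lipid droplet protein gene, was at 5.15 ± 0.21, 7.66 ± 0.71 and 5.70 ± 0.37 in the same order. Adipoq and Lep had group means between 4.94 and 5.68. The part of this list in the results was not tested. The 3 control probe sets for 18S ribosomal RNA averaged from 7.59 to 8.67 on the arrays numbered 3 and from 10.51 to 12.44 on the others.

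Upstream sequences are shown for 4 genes that the results turn on, Btg2, Btg1 and Tob1, whose levels went together, and Plk2, which went the other way. They are the 250 bases before the RefSeq gene start in GRCm38.p6, read 5′ to 3′ on the gene's own strand. Capitals mark matches, on either strand, to the core AGGTCA that nuclear receptors bind, to the cyclic AMP response element TGACGTCA, which CREB family factors bind, or to the TATA box letters TATAAA.
Btg2, chr1:134079156-134079405, - strand: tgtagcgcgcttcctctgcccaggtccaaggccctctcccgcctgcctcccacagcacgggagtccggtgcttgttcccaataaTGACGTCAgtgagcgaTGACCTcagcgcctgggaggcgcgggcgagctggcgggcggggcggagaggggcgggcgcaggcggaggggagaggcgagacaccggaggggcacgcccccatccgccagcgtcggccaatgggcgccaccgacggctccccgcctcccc
Plk2, chr13:110394794-110395043, + strand: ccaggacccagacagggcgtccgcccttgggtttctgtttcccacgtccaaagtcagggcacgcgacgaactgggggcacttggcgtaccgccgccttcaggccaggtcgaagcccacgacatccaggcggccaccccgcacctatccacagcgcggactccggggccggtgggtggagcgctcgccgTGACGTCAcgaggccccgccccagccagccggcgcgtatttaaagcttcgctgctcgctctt
Btg1, chr10:96616751-96617000, + strand: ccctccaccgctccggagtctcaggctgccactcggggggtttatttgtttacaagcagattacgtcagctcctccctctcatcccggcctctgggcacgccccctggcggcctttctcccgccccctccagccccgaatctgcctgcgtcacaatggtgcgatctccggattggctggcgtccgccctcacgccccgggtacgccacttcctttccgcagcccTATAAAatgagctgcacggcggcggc
Tob1, chr11:94211204-94211453, + strand: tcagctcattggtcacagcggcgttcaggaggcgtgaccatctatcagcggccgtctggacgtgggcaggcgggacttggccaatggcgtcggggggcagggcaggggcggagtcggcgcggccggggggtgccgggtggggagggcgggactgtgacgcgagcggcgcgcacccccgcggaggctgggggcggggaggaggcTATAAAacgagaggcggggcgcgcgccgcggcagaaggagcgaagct

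The element TGACGTCA was found upstream of Btg2, from 159 to 166 bases before the start, and of Plk2, from 55 to 62 bases before it. Of all 32851 windows of this length 1.55% held it. Btg2 also had AGGTCA on the opposite strand, from 145 to 150 bases before the start, a match that 14.0% of all windows held. The letters TATAAA stood from 21 to 26 bases before the start of Btg1 and from 42 to 47 bases before that of Tob1, and in 12.4% of all windows. The consensus of a PPAR response element, 2 copies of AGGTCA in the same direction with 1 base between them, was not in the windows of the 9 listed genes and was in 0.0335% of all windows. These letters are descriptions of sequence and not sites shown to be bound, and elements farther from the start were not searched.

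Btg2, an antiproliferative gene that p53 and growth factors both induce, had the largest differences of the set. With empty vector its kept probe set, the one of higher mean, read 8.15, 8.47 and 7.94 on arrays 1, 2 and 3. It read 11.22, 11.04 and 10.09 under the full-length receptor and 10.21, 10.32 and 9.11 under the deleted receptor. Every array of both receptor groups was above every empty-vector array, and the ranges of the receptor groups overlapped. Means were 8.19 ± 0.27, 10.78 ± 0.61 and 9.88 ± 0.67 in that order. The difference from empty vector was 2.60 (SE 0.37) with the full-length and 1.69 (SE 0.37) under the deleted receptor. Array 3 was the lowest of each group, and the arrays numbered 3 are those with low 18S controls. Without those 3 arrays the differences were 2.82 and 1.95. The second probe set of Btg2 gave 2.41 (SE 0.31) and 1.64 (SE 0.31), so both probe sets of the gene gave similar differences.

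Btg1, the close relative of Btg2 and a gene linked to quiescence of lymphoid and other cells, had smaller differences with a small spread. Its kept probe set read 12.12, 12.21 and 12.16 with empty vector. Under the full-length receptor it read 12.82, 12.84 and 12.68, and under the deleted receptor 12.67, 12.70 and 12.56. Both receptor groups lay wholly above empty vector, and array 3 was the lowest in each receptor group. The difference from empty vector was 0.61 (SE 0.10) under the full-length receptor and 0.48 (SE 0.10) under the deleted receptor. The latter had a limma adjusted p of 0.237. The other 2 probe sets of Btg1 had the same sign in both comparisons. They differed in size, at 0.43 and 1.23 under the full-length receptor and at 0.20 and 1.24 under the deleted receptor.

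Tob1 encodes an antiproliferative protein that links the deadenylase to poly(A)-binding protein. It read 8.90, 8.41 and 8.79 with empty vector, 10.05, 10.40 and 9.93 under the full-length receptor and 9.65, 9.97 and 9.25 under the deleted receptor. Again both receptor groups were above every empty-vector array. Array 2 was the lowest of the empty-vector group and the highest of both receptor groups. The difference was 1.43 (SE 0.21) with the full-length and 0.92 (SE 0.21, limma adjusted p = 0.315) under the deleted receptor. Its other probe set, which stayed between 6.47 and 6.97 around the array medians, gave 0.05 and 0.13. The probe sets of Tob1 thus disagreed.

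Tob2, the paralogue of Tob1, had 5 probe sets and overlapping groups in all of them against empty vector. The kept probe set read 9.20, 8.98 and 9.88 with empty vector, 9.64, 9.64 and 9.92 under the full-length receptor and 9.31, 9.14 and 9.91 under the deleted receptor. Array 3 was the highest of each group. Its difference was 0.38 (SE 0.26) under the full-length receptor and 0.10 (SE 0.26, limma adjusted p = 1.00) under the deleted receptor. Over the 5 probe sets the differences ran from 0.05 to 0.41 and from -0.05 to 0.12.

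**Figure D1:**
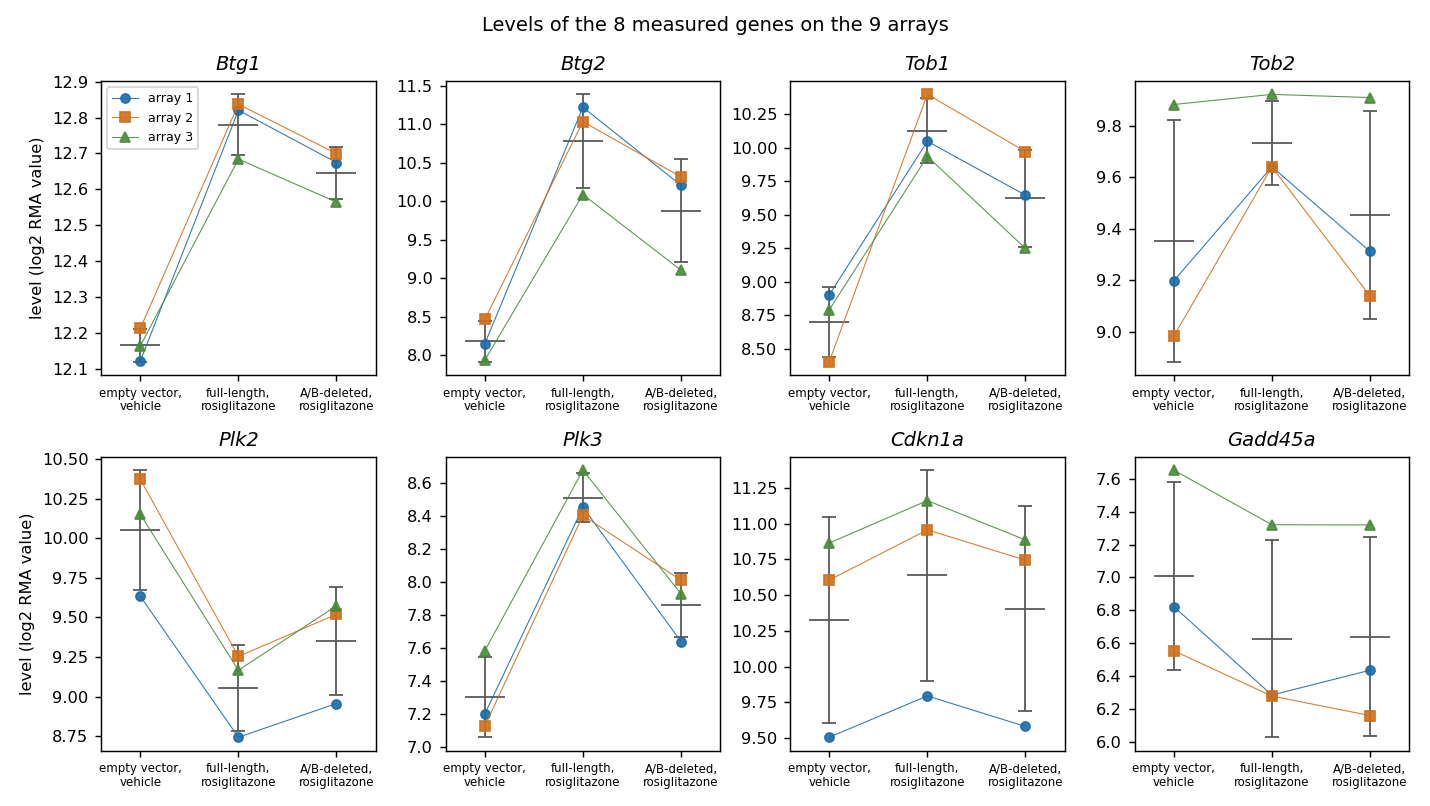
Log2 level of the kept probe set of each of the 8 measured genes (vertical axis, own scale per panel) in the 3 groups (horizontal axis). Coloured points are single arrays, thin lines join arrays of the same number, and grey bars are the mean ± SD of 3 arrays. Btg1, Btg2, Tob1 and Plk3 were higher and Plk2 lower with both receptors on every array, whereas Cdkn1a and Gadd45a followed the array number, with Cdkn1a array 1 from 9.51 to 9.80 in all groups.

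The 2 kinase genes went in opposite directions. Plk3, a stress-responsive Polo-like kinase gene with 1 probe set, read 7.20, 7.12 and 7.58 with empty vector. It read 8.45, 8.40 and 8.68 under the full-length receptor and 7.64, 8.01 and 7.93 under the deleted receptor. The 3 groups did not overlap, under the deleted receptor between the other groups. The difference from empty vector was 1.21 (SE 0.16) with the full-length and 0.56 (SE 0.16, limma adjusted p = 0.644) under the deleted receptor.

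Plk2, the serum-inducible member of the family, read 9.63, 10.37 and 10.15 with empty vector. Levels were 8.74, 9.25 and 9.17 under the full-length receptor and 8.96, 9.52 and 9.57 under the deleted receptor. Every receptor array was below every empty-vector array, and array 1 was the lowest in all groups. The difference was -0.998 (SE 0.24) with the full-length and -0.70 (SE 0.24, limma adjusted p = 0.909) under the deleted receptor. The second probe set of Plk2 was dim, from 5.46 to 6.13 and below every array median, and did not have this pattern, at -0.09 and 0.27. Under the deleted receptor it lay wholly above empty vector, the opposite of the kept probe set.

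Cdkn1a and Gadd45a varied more between array numbers than between groups. The kept probe set of Cdkn1a read 9.51, 10.61 and 10.87 with empty vector, 9.80, 10.96 and 11.16 under the full-length receptor and 9.58, 10.75 and 10.89 under the deleted receptor. Array 1 was the lowest in each group, and all 3 groups overlapped. The difference from empty vector was 0.31 (SE 0.48) with the full-length and 0.08 (SE 0.48, limma adjusted p = 1.00) under the deleted receptor, and the 95% interval of the latter, without a block, ran from -1.01 to 1.16. Between arrays of the same number that difference was 0.08, 0.14 and 0.02, and with the block its SE was 0.07 (limma adjusted p = 0.874). The second probe set gave 0.15 and 0.14. Leaving out empty-vector array 1, the lowest of its group, turned the sign of both differences of Cdkn1a, to -0.10 and -0.33. That leaves groups with unlike array numbers. Between arrays of the same number the full-length difference was 0.29, 0.35 and 0.30, though numbers were not taken as pairs in that comparison.

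Gadd45a read 6.82, 6.55 and 7.65 with empty vector, 6.29, 6.28 and 7.32 under the full-length receptor and 6.44, 6.16 and 7.32 under the deleted receptor. Array 3 was the highest in each group. The difference was -0.38 (SE 0.40) with the full-length and -0.37 (SE 0.40, limma adjusted p = 1.00) under the deleted receptor, whose interval ran from -1.27 to 0.52. That interval comes from the fit without a block. Between arrays of the same number the deleted receptor differed from empty vector by -0.39, -0.39 and -0.33, and with the block the SE was 0.08 (limma adjusted p = 0.137).

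**Figure D2:**
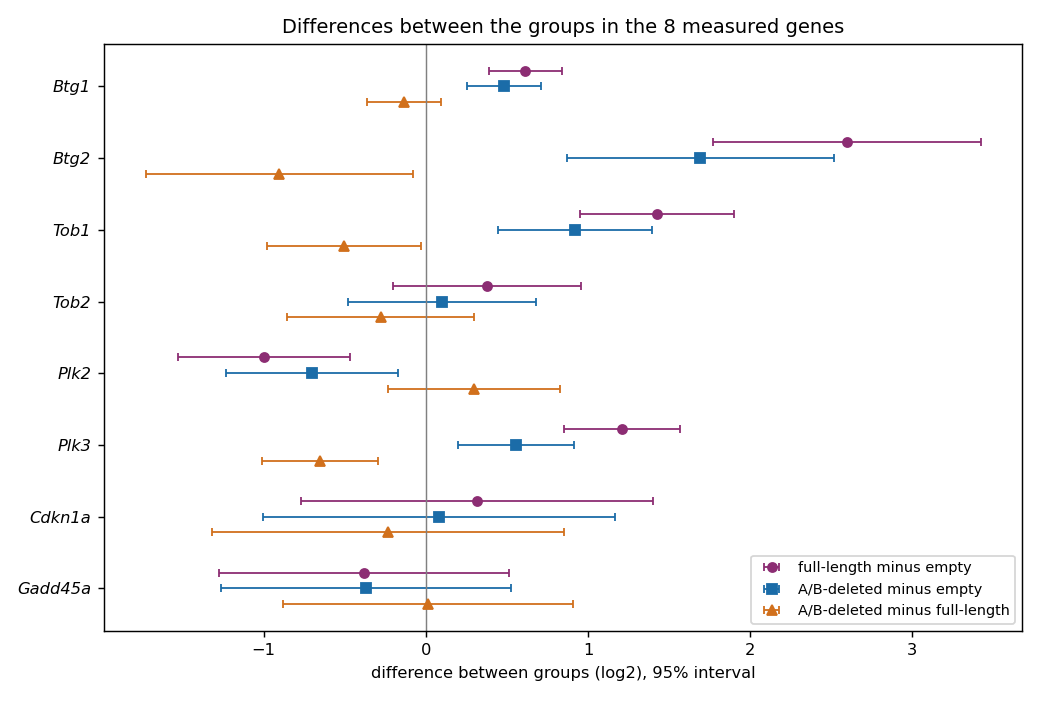
Log2 differences between group means for the 8 measured genes with 95% limma intervals from the fit without a block, for full-length receptor minus empty vector, deleted receptor minus empty vector and deleted minus full-length receptor. Points right of 0 are higher in the first group named. Intervals for full-length receptor minus empty vector, and for Btg2 in every comparison, are descriptions and not tests. Btg2 stands farthest right at 2.60, Plk2 is the gene farthest left against empty vector at -0.998, and the intervals of Cdkn1a and Gadd45a are the widest and include 0 in all 3 comparisons.

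As a description and not a test, since the genes were chosen with this comparison known, 4 of the 8 lay past the limma threshold under the full-length receptor, all higher than with empty vector, where 0.654% of all genes were called in either direction and 0.5% higher. Nothing is read from that count, which fell to 0 without empty-vector array 2, and to 1 without full-length array 1, full-length array 2, empty-vector array 1 or empty-vector array 3. The arrays of Btg1, Btg2, Tob1, Plk3 and Plk2 did not overlap with empty vector, which held for 9.38% of all genes in either direction. The median difference over the 8 genes was 0.50, beside 0.0032 over all genes.

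With the deleted receptor, limma called 0 of the 8 genes, where 0.17% of all genes were called. At an unadjusted p under 0.05 there were 4 higher, Btg2 among them, and 1 lower of the 8, and 403 higher and 286 lower of all 18193 genes. Btg2 is a description here. The genes were chosen with earlier results of these data known, so nothing is read from the count of the 8. Arrays of the same number deviated together in this comparison and were taken as pairs, a choice made from these data. The block was fitted over the arrays of all groups, so calls with the block also rest on the full-length arrays. Numbers of those arrays were not taken as pairs with empty vector. Calls with the block from the compared groups alone were not computed. With the array number as a block, limma called 2 of the 7 genes other than Btg2, where 0.912% of all genes were called. Plk2 was called lower (limma adjusted p = 0.0239 with the block and 0.909 without). Btg1 was called higher (limma adjusted p = 0.0465 with the block and 0.237 without). Limma with the block and every probe set tested was an alternative chosen after seeing the data. It lost the call of Btg1 (adjusted p = 0.0710) and kept that of the kept probe set of Plk2 (adjusted p = 0.0334). In that fit the other Plk2 probe set differed by 0.27 and was not called (adjusted p = 0.694). The mean of the Plk2 probe sets gave -0.22 without the block and was not called. The choice of genes with earlier results known limits these calls too. The 5 genes without overlap were the same as under the full-length receptor, and 7.89% of all genes had none. Both comparisons share the empty-vector arrays. The median difference over the 8 genes was 0.29, beside -0.03 over all genes.

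The comparison of the receptors with each other asks what the A/B-domain adds. For Btg2 the deleted receptor was lower by 1.01, 0.72 and 0.98 on arrays 1, 2 and 3. The mean difference was -0.90 (SE 0.37), with a 95% interval from -1.73 to -0.08 and a limma adjusted p of 1.00. It ran from -1.25 to -0.52 when single arrays were left out, the latter without deleted-receptor array 3. The full-length arrays were also part of the comparison through which Btg2 entered the list, so these values of Btg2 are a description. For Plk3 the deleted receptor was lower by 0.81, 0.39 and 0.75, with a mean of -0.65 (SE 0.16), an interval from -1.01 to -0.30 and an adjusted p of 1.00 by limma. Its arrays did not overlap between the receptors, as for 5.17% of all genes. For Tob1 the difference was -0.50 (SE 0.21, limma adjusted p = 1.00), with an interval from -0.98 to -0.03, and it ran from -0.68 to -0.32 when single arrays were left out, the latter without deleted-receptor array 3. These intervals come from the fit without a block and are not adjusted for the number of genes.

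Btg1 was at -0.13 (SE 0.10), with an interval from -0.36 to 0.09. Its difference from empty vector under the full-length receptor was itself 0.61, so its size is not compared with that of Btg2. Tob2 was at -0.28 (SE 0.26), Plk2 at 0.30 (SE 0.24), Cdkn1a at -0.23 (SE 0.48) and Gadd45a at 0.01 (SE 0.40). The sign was the same on all 3 pairs for 7 of the 8 genes, 6 of them lower under the deleted receptor and 1, Plk2, higher. The share of all genes with 1 sign on all 3 pairs was not computed, so nothing is read from these signs. Limma called 0 of the 8 genes, without or with the block, where 0% of all genes were called. At an unadjusted p under 0.05 there were 3 of the 8, Btg2, Plk3 and Tob1, all lower, and 99 higher and 178 lower over all genes. The full-length arrays were part of the comparison known when the genes were chosen, so nothing is read from that count. A gene that limma did not call here is not shown to respond equally to both receptors.

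**Figure D3:**
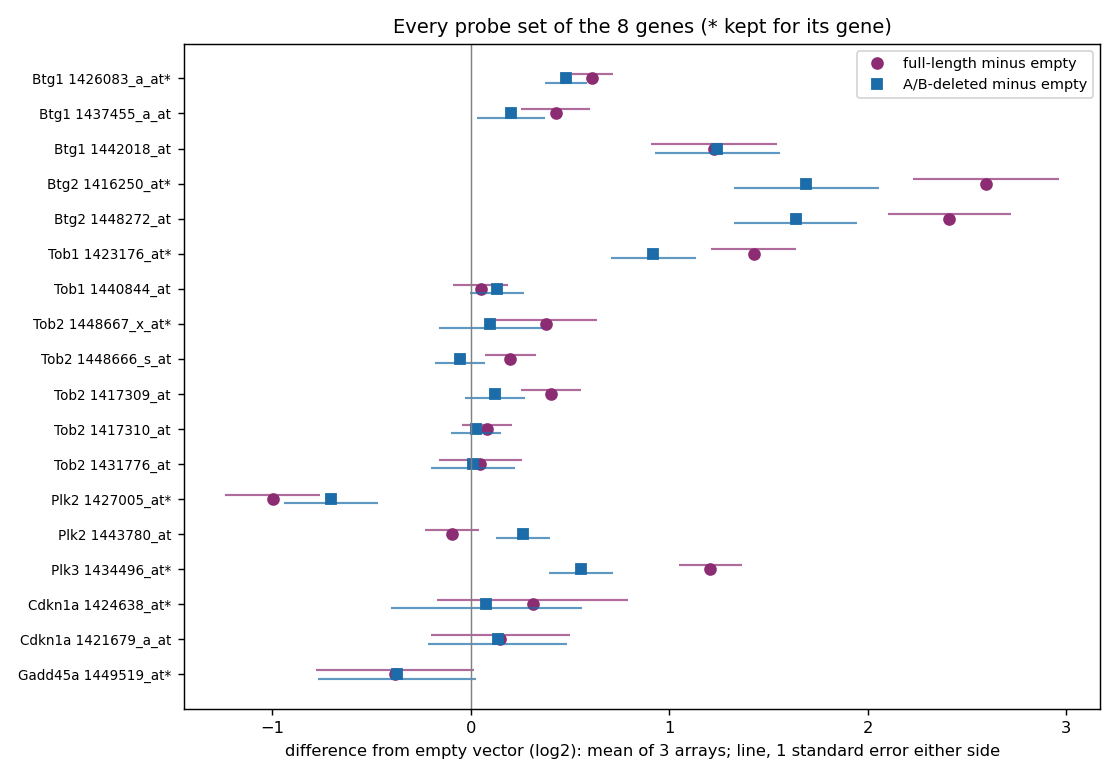
Log2 difference from empty vector of every probe set of the 8 measured genes, under the full-length receptor (circles) and the deleted receptor (squares), and lines of 1 standard error either side. An asterisk marks the probe set kept for its gene. Both probe sets of Btg2 and all 3 of Btg1 lie right of 0, while the second probe sets of Tob1 and Plk2, at 0.05 and -0.09 under the full-length receptor, do not follow the kept ones.

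Across the 9 arrays the levels of Btg2, Btg1 and Tob1 went together. Pearson's r between Btg2 and Btg1 was 0.97, between Btg2 and Tob1 0.93 and between Btg1 and Tob1 0.93. Plk3 had r = 0.79 and Plk2 r = -0.83 with Btg2, while Cdkn1a had -0.0029. Over the 9 arrays these values reflect the 3 groups as well as the array numbers, so they describe the pattern and carry no test. The 3 genes most like Btg2 over the 9 arrays were Sipa1l1 (r = 0.99), Slc18b1 (r = 0.98) and Unc119 (r = 0.98). Slc18b1 was at 8.95 ± 0.02 with empty vector, 10.54 ± 0.25 with the full-length and 10.13 ± 0.30 under the deleted receptor. Plekhb2, Plagl1 and Rgma were most like Plk2, with r from 0.97 to 0.98. Tagln2, Ak1 and Vim were most like Cdkn1a, also with r from 0.97 to 0.98. Vim was at 14.08 ± 0.14, 14.16 ± 0.13 and 14.13 ± 0.14 with empty vector, full-length and deleted receptor.

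Genes that work with or beside the set were taken from lists. Counts at an unadjusted p under 0.05 in these lists stand beside 553 genes higher and 574 lower of all 18193 under the full-length receptor, 403 and 286 under the deleted receptor, and 99 and 178 between the receptors. Of the CCR4-NOT complex and its partners, 14 of 15 genes were measured and limma called 0 in each of the 3 comparisons. At an unadjusted p under 0.05 there were 2 lower with the full-length and 0 under the deleted receptor, and 1 higher between the receptors. The list's median difference was -0.02 against empty vector with either receptor. Its lowest member was Prmt1, an arginine methyltransferase that binds BTG1 and BTG2, singled out after its values were seen. It read 11.72, 11.06 and 11.65 with empty vector, 10.26, 9.96 and 9.67 with the full-length and 10.92, 11.84 and 10.76 under the deleted receptor. The full-length arrays were below all others, at a difference of -1.51 from empty vector (SE 0.30, limma adjusted p = 0.0683), while the deleted receptor overlapped with empty vector at -0.31 (SE 0.30). Without deleted-receptor array 2, which also enters the estimate of spread, the call for the full-length difference was made (limma adjusted p = 0.0228). Leaving out any other single array made no call, with limma adjusted p up to 0.274. With the block it was not called either (limma adjusted p = 0.0684).

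The remaining relatives were not called by limma in any comparison. Btg4, a germ cell member of the BTG family, differed by 0.14 and -0.03 from empty vector under the full-length and the deleted receptor. Plk1, Plk4 and Plk5 had a median of -0.09 and -0.05, with 0 at an unadjusted p under 0.05. Of Gadd45b and Gadd45g 1 was lower at that threshold in each comparison, but not the same gene throughout. Against empty vector it was Gadd45b, at -0.64 under the full-length and -0.41 under the deleted receptor. Between the receptors it was Gadd45g, at -0.30. The 6 other CDK inhibitors had medians of -0.17 and -0.26, with 1 lower at that threshold with the full-length and 0 under the deleted receptor.

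Other p53 target genes had medians above those of all genes, which were 0.0032 under the full-length and -0.03 under the deleted receptor. The upper quartiles of all genes were 0.098 and 0.068 in the same order. This shift was not tested. Of 29 listed, 27 were measured and 0 were called by limma, and their medians were 0.11 and 0.05 under the full-length and the deleted receptor. At an unadjusted p under 0.05 there were 3 higher and 2 lower under the full-length receptor and 1 higher under the deleted receptor. With the block 1 was called under the deleted receptor, Eda2r, a death-domain receptor of the TNF family, at 0.92 (adjusted p = 0.029 with the block and 1.00 without). Under the full-length receptor Eda2r was similar, at 1.01 (SE 0.33, limma adjusted p = 0.428 without the block). G1 cell cycle genes, 16 of 16 measured, had medians of 0.02 and 0.03 with 0 called by limma and, at an unadjusted p under 0.05, 1 higher and 1 lower with the full-length and 1 higher under the deleted receptor. Proliferation genes, 22 of 23 measured, had medians of -0.10 and -0.04 with 0 called by limma and 1 and 2 higher at an unadjusted p under 0.05.

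Immediate-early genes had the largest shift among these lists, with medians of -0.33 and -0.41 over 18 genes, which was not tested. At an unadjusted p under 0.05 there were 2 higher and 8 lower under the full-length receptor. With the full-length receptor 2 fell by limma, 0.154% of all genes being called lower. They were the transcription factor genes Egr1, at -1.82 (SE 0.21, adjusted p = 0.00499), and Jun, at -1.07 (SE 0.19, adjusted p = 0.0486). The call of Jun was lost without any 1 array other than full-length array 2, with limma adjusted p up to 0.207, and without the 3 arrays numbered 3 (limma adjusted p = 0.198). Plk2, with a difference of -0.998, had the sign of this list's median, while Btg2 and Plk3, also known as immediate-early genes, had the opposite sign. With the deleted receptor 0 were called, with 2 higher and 7 lower at an unadjusted p under 0.05. With the block 2 fell, Egr1 at -1.31 (adjusted p = 0.0203 with the block) and the matrix protein gene Ccn2 at -1.40 (adjusted p = 0.0276 with the block). Ccn2 read 11.16, 10.05 and 11.79 under the deleted receptor and 12.37, 11.99 and 12.84 with empty vector, without overlap. It was not particular to the deleted receptor, since it read 10.25, 9.20 and 10.50 under the full-length receptor. That difference from empty vector was larger, at -2.42 (SE 0.46), and was not called without the block (limma adjusted p = 0.0620).

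**Figure D4:**
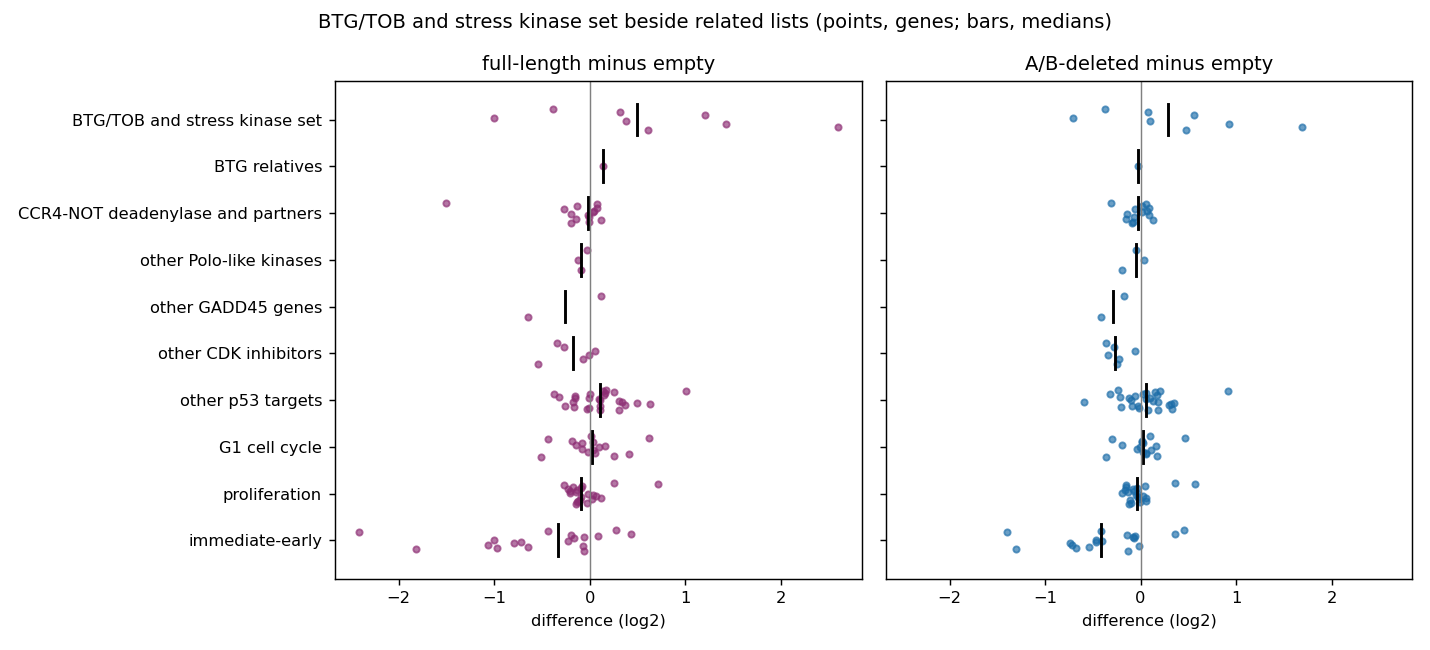
Log2 differences from empty vector for the 8 measured genes of the set and for the genes of 9 related lists, under the full-length receptor (left) and the deleted receptor (right). Each point is a gene and each black bar a list median. The median of the set is 0.50 and 0.29, that of the immediate-early list -0.33 and -0.41, and those of the p53, G1 and proliferation lists lie between -0.10 and 0.11.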

How the data were processed

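Affymetrix arrays gave RNA levels for 9 samples, 3 a group, grouped by their titles. Per the submitters' processing notes, the deposited log2 values come from RMA (affy, R 2.5.0). No source names the base, so it was taken from the data: 2 raised to each value fell on hundredths, to a tolerance of 0.01 of a step, for at least 99.858% of every array. Detection calls were not used here, and the number of arrays limits precision. Names are those of the platform annotation, updated by Entrez identifier in RefSeq GRCm38.p6, which changed 0 symbols. Control probe sets and those with several symbols or none were left out.

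For each gene the probe set of highest mean was kept, with no filter on level. limma 3.58.1 in R 4.3.3 (lmFit, contrasts, eBayes, two-sided) was fitted without a block, 1 mean per group over all 9 arrays, leaving 6 residual and 3.374 prior degrees of freedom. The fit was tested on simulated data. Differences of probe sets not kept were fitted the same way over all 34945 single-gene probe sets. Upstream windows were searched with Python 3.11.15. The genes named were the listed ones, Pparg, called genes of fixed lists and the 3 genes most correlated with Btg2, Plk2 and Cdkn1a, besides markers and Prmt1, which was chosen after its values were seen. The members and lists were chosen with earlier results of these data known.

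Equal array numbers were treated as pairs where every correlation of deviations from group means was over 0.1. These ran from 0.52 to 0.71 between deleted receptor and empty vector, from 0.30 to 0.53 between the receptors and from -0.12 to 0.63 between full-length receptor and empty vector, the last not treated as pairs. Alternatives were the block, array scaling, quantile normalization, the mean of probe sets, all probe sets tested, a level filter, limma-trend, the 6 compared arrays and leaving out arrays.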

Additional observations from a re-analysis of the deposited data

How the results depend on the processing

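Each difference of the 8 genes was recomputed under up to 19 alternatives in 3 comparisons, the last of them chosen after seeing the data. Of 437 values 396 kept their sign and their side of the threshold, 23 lost a call, 7 gained one and 11 changed sign, all 11 when a single array was left out. Full-length receptor against empty vector gave 91 genes higher and 28 lower. With the replicate block these were 344 and 317, although numbers were not taken as pairs there, and 5 members were called. With only the 6 compared arrays they were 53 and 14. Genes called lower were 53 among genes at or above the median level and 48 when every probe set was tested. The mean of probe sets called 2 members in place of 4. Leaving out single arrays gave 44 to 88 genes higher, 13 to 26 lower and 0 to 4 members. Deleted receptor against empty vector gave 29 higher and 2 lower. The replicate block gave 120, 46 and 3 members, and leaving out the arrays numbered 3 gave 49, 6 and 1 member. The replicate block with every probe set tested, the added alternative, gave 149, 46 and 2 members. These member counts include Btg2, whose values are a description. Genes called lower were 1 with median subtraction, quantile normalization or the mean of probe sets, 7 at or above the median level and 0 with the 6 compared arrays. Leaving out single arrays gave 17 to 30 higher and 0 to 4 lower, and between the receptors 0 to 1 lower, the 1 without full-length array 3. The causes were not tested, apart from fewer arrays or genes where the alternative removes them. Over single arrays left out, Cdkn1a ran from -0.10 to 0.73 under the full-length receptor, from -0.33 to 0.49 under the deleted receptor and from -0.66 to 0.18 between the receptors. Tob2 ran from -0.13 to 0.36 under the deleted receptor. Between the receptors Gadd45a ran from -0.33 to 0.36, Pparg from -0.25 to 0.57 and Eda2r from -0.30 to 0.17. The Pparg difference of 0.09 between the receptors was -0.082 without the arrays numbered 3. Gadd45a was not tested among genes at or above the median level, since its mean is lower. With 3 arrays a group, and detection calls not used here, small differences and dim probe sets are the least certain.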
